A study of Rattus norvegicus with 8 samples.

Results

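Adssl1, a muscle-type adenylosuccinate synthetase, was examined with other genes of the purine nucleotide cycle and AMP salvage in rat hypothalamus after vapor cannabis exposure. Members were taken by gene symbol from a list of 7 genes, namely Adssl1, Adss, Adsl, Ampd2, Ampd3, Adk and Hprt1. The list found 25 of the 98356 alternative polyadenylation (APA) sites in the files and 6 of the 18003 gene symbols. These were 2 sites of Adssl1, 4 of Adss, 6 of Adsl, 2 of Ampd2, 2 of Ampd3 and 9 of Adk, whereas Hprt1, a purine base salvage enzyme, had no row under that symbol and was not analysed here. Adssl1 was chosen by its difference between cannabis and air control libraries and the other members as enzymes around it, so these differences are a description. No p is given for a member, and the calls of the fit are only counted beside those over all features. The muscle AMP deaminase of the cycle, Ampd1, also had no row.

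Samples were 8 WTTS-Seq libraries of hypothalamus from adult male Long-Evans rats. Of these, 4 (replicates 1, 2, 3 and 4) came from air-treated control rats held in the same type of chamber with an unfilled vaporizer, and 4 (replicates 1, 2, 3 and 5) from rats exposed to vaporized cannabis plant matter. All rats had been habituated to the chambers, fed freely beforehand, and had food withheld for the 1 hr between exposure and tissue collection. The series' design text narrows the tissue to its mediobasal part. WTTS-Seq reads begin at the 3′ end of a transcript, so each read marks a single APA site and the count of a gene does not grow with transcript length. Values are normalized counts, that is, reads on a site divided by the size factor of its library, and a gene total is the sum over the sites of a symbol. The files give neither coordinates nor strand for a site, so sites are numbered by falling mean level and no position or sequence is shown.

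The purine nucleotide cycle converts IMP to AMP and back. Adenylosuccinate synthetase joins aspartate to IMP, adenylosuccinate lyase releases fumarate from the product to leave AMP, and AMP deaminase returns AMP to IMP with the loss of ammonia. The cycle is best known from working muscle, while in brain its enzymes serve adenine nucleotide supply and adenosine kinase returns adenosine, a modulator of neuronal activity, to AMP.

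Depth ranged from 1159811 to 3706778 reads on sites per library, and a single read was worth 0.664 to 1.99 normalized counts. Air control 4 was the shallowest library, with no read on 26.1% of sites against 3.32 to 17.0% in the others. Hypothalamic neuron markers were present (9 of 10 listed, Npy having no row), and their summed level was 3231 to 5577 normalized counts in the air control libraries and 7366 to 9422 in the cannabis libraries, without overlap. The 6 midbrain dopamine neuron markers summed to 652 to 852 in air control and to 150.3 to 332 in cannabis libraries, again without overlap. These sums were carried by a few abundant genes. By group mean, 8 of the 9 hypothalamic markers were higher in cannabis and 1 was lower. Of the 6 midbrain markers 5 were lower in cannabis and 1, Foxa1, was higher. Avp, the vasopressin gene, was the only 1 of the 9 hypothalamic markers without overlap (1054 to 3082 in air control and 3278 to 6314 in cannabis). Slc6a3, Th and En1 were the 3 of 6 midbrain markers without overlap. Slc6a3 and Th serve dopamine neurons in general, and the paper refers to such neurons in the arcuate nucleus of the hypothalamus. The list therefore does not tell midbrain from hypothalamic dopamine cells. Fewer cells of a type cannot be told apart from less RNA per cell in such bulk tissue. Whether the dissected tissue differed between the groups was not tested.

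Adssl1, which catalyses the step from IMP to adenylosuccinate, was the member with the widest spread between libraries. Its total was 46.8, 87.4, 85.9 and 151 normalized counts in air control replicates 1, 2, 3 and 4. In cannabis replicates 1, 2, 3 and 5 it was 8.69, 1.99, 4.92 and 53.0. In cannabis, 3 of 4 libraries lay below every air control library, and cannabis 5 lay just above air control 1, so the groups overlapped. The group means were 92.8 ± 43.1 in air control and 17.2 ± 24.1 in cannabis (SD, n = 4 each). The fitted log2 difference of log2(total + 1), cannabis minus air control, was -3.14 with a standard error of 0.69 (limma). Without cannabis 5 it was -3.96, and without cannabis 2 it was -2.57. A single gene among the 18003, Slc6a3, had a larger log2 difference in either direction.

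**Figure D1:**
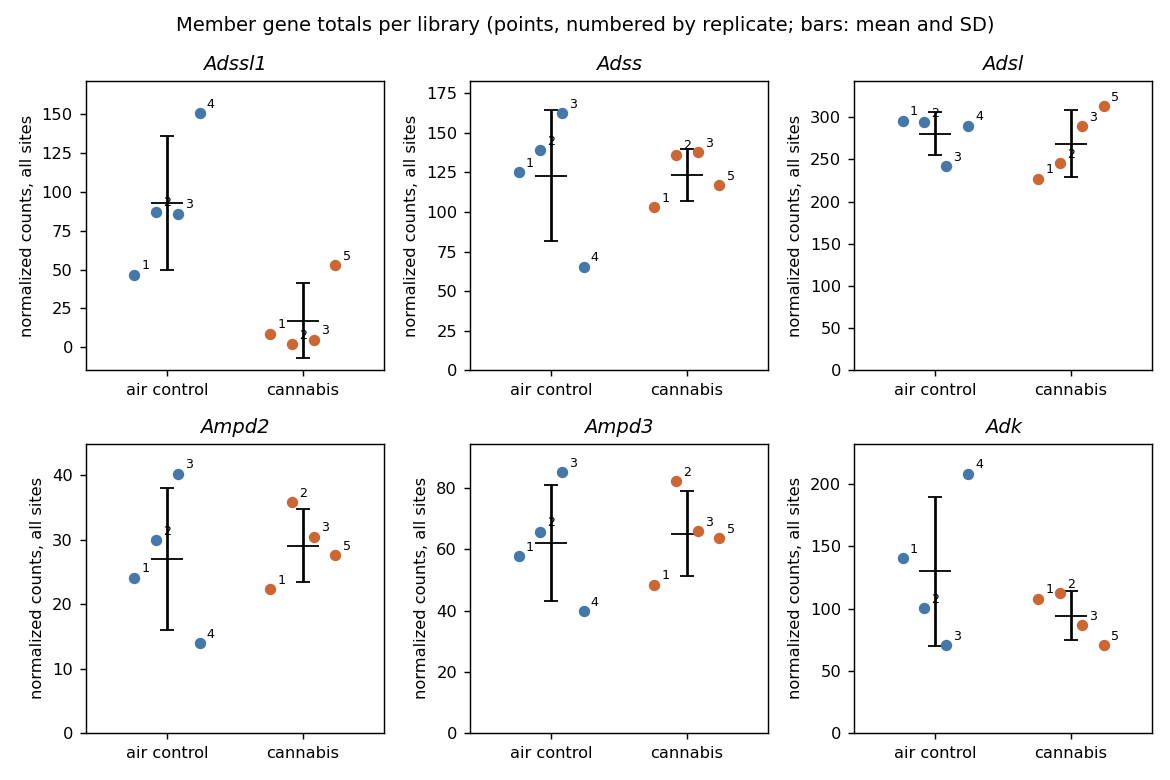
Gene totals in normalized counts (y axes, linear) of the 6 members in the 4 air control and 4 cannabis libraries, with points numbered by replicate, a horizontal tick for the group mean and bars for 1 SD on either side. In the Adssl1 panel cannabis replicates 1, 2 and 3 lie at 1.99 to 8.69 and cannabis 5 at 53.0, whereas the groups of the other 5 genes lie over each other and air control 4 is lowest for Adss, Ampd2 and Ampd3 and highest for Adk.

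The Adssl1 reads came from a dominant and a minor site, and they differed in pattern. Site 1 held 44.6, 83.8, 85.3 and 147 normalized counts in air control replicates 1, 2, 3 and 4. The cannabis replicates 1, 2, 3 and 5 held 2.48, 0, 0 and 53.0. In reads these were 61, 70, 127 and 74 in air control and 2, 0, 0 and 69 in cannabis, so that 2 cannabis libraries had no read on this site. With no read, levels of up to 1.99 (cannabis 2) and 2.95 (cannabis 3) normalized counts remain possible from counting error, taken as 3 reads.

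Site 2 of Adssl1 had 3, 3, 1 and 2 reads in air control and 5, 3, 5 and 0 reads in cannabis replicates 1, 2, 3 and 5, or 22 reads in all. Its group means were 2.61 ± 1.5 and 3.28 ± 2.81 normalized counts (SD, n = 4 each), and the groups overlapped. The fitted log2 difference was -4.50 (SE 0.85) for site 1 and 0.02 (SE 0.68) for site 2. At these depths of a few reads a difference at site 2 was not detectable.

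As a share of the gene, site 1 took 95.3 to 99.2% of Adssl1 reads in the air control libraries. In cannabis 5 it took 69 of 69 reads (95% Wilson interval 94.7 to 100%). In cannabis 1 it took 2 of 7 reads (28.6%, interval 8.22 to 64.1%). For cannabis 2 and 3 it took 0 of 3 and 0 of 5 reads, where the intervals reached 56.1% and 43.4%. The few Adssl1 reads of these 3 libraries thus lay mostly on site 2, with shares that rest on 3 to 7 reads. Intervals and limits from 0 reads cover counting error only.

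**Figure D2:**
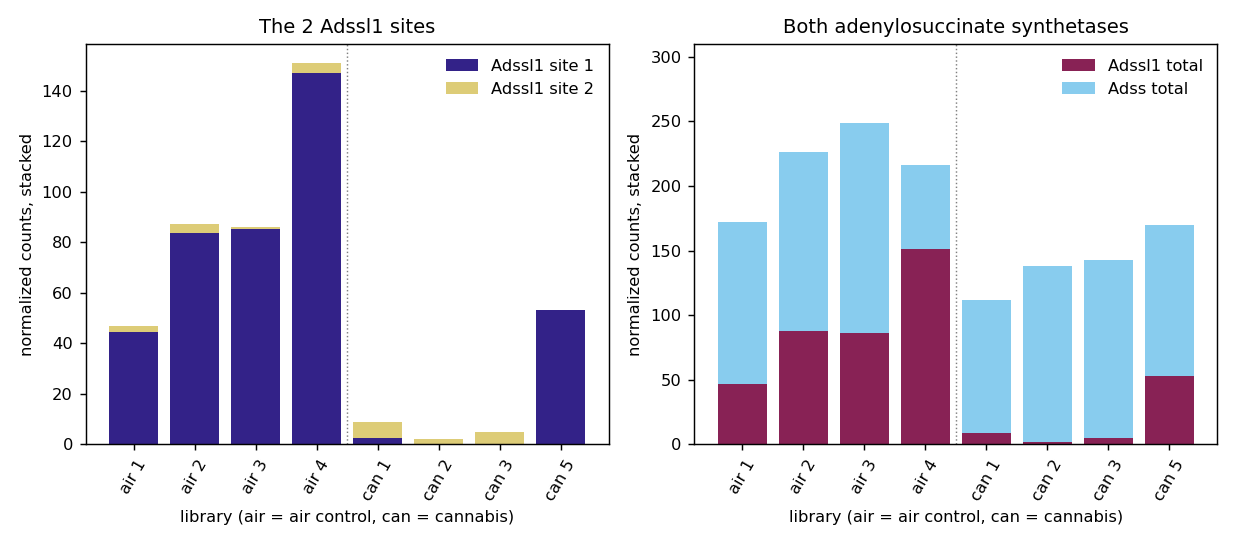
Stacked bars of normalized counts (y axes from 0) in each library, with the 2 Adssl1 sites on the left and the totals of Adssl1 and Adss on the right. Site 1 makes up nearly all of the bar in the 4 air control libraries and in cannabis 5, and is at 0 to 2.48 in the other cannabis libraries, while Adss fills most of the bar on the right in every library except air control 4.

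Adss, the synthetase found in most tissues, catalyses the same step. Its total was 125, 139, 162 and 65.5 normalized counts in air control replicates 1 to 4 and 103, 136, 138 and 117 in cannabis replicates 1, 2, 3 and 5. The cannabis range lay inside that of the air control libraries, and the fitted log2 difference was 0.07 (SE 0.28). Adss site 1 held 89.3% of the reads of the gene, at 109 ± 48.6 in air control and 108 ± 17.7 in cannabis, and site 2 was at 9.93 ± 4.25 and 10.03 ± 5.41 (SD, n = 4 each). In air control 4 site 1 took 20 of 33 Adss reads (60.6%, Wilson interval 43.7 to 75.3%), below the 82.2 to 93.4% of the other 7 libraries.

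Summed over both synthetases, the level was 172, 226, 248 and 216 normalized counts in air control and 112, 138, 143 and 169.7 in cannabis libraries. These groups did not overlap, by a margin of 169.7 to 172, and 1.98% of all gene totals did not overlap. The sum includes Adssl1, chosen by this contrast, and the share refers to single genes, so nothing is read from the separation. Adssl1 supplied 27.2, 38.6, 34.6 and 69.7% of the sum in air control and 7.78, 1.44, 3.45 and 31.2% in cannabis libraries. The share in cannabis 5 fell within the air control range.

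Adsl, adenylosuccinate lyase, acts both in the cycle and in purine synthesis and had the highest level of the members. Its total was 296, 294, 242 and 290.0 in air control and 227, 246, 289 and 313 in cannabis libraries. The groups overlapped, with a log2 difference of -0.07 (SE 0.19), the smallest standard error of the 6 totals. Adsl site 1 held 92.3% of the reads and site 2 3.56%, at 11.8 ± 7.42 in air control and 9.18 ± 3.77 in cannabis (SD, n = 4 each).

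Ampd2 and Ampd3 are AMP deaminases of non-muscle tissues. The Ampd2 total was 24.1, 29.9, 40.3 and 13.9 in air control and 22.4, 35.9, 30.5 and 27.7 in cannabis libraries. For Ampd3 the totals were 57.8, 65.8, 85.3 and 39.7 in air control and 48.4, 82.4, 65.9 and 63.7 in cannabis libraries. Cannabis values of both genes lay within the air control range. Their log2 differences were 0.17 (SE 0.35) for Ampd2 and 0.09 (SE 0.28) for Ampd3, and Ampd2 made up 29.7 ± 2.73% of their sum in air control and 31.0 ± 0.758% in cannabis (SD, n = 4 each).

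The pair of sites of Ampd3 had log2 differences of opposite sign. Site 1 was at 30.7, 56.3, 69.8 and 23.8 in air control and 43.5, 77.7, 46.2 and 59.1 in cannabis libraries. Site 2 was at 27.0, 9.58, 15.4 and 15.9 in air control and 4.97, 4.65, 19.7 and 4.61 in cannabis libraries. Cannabis 3 alone kept the groups of site 2 overlapping. The fitted log2 differences were 0.41 (SE 0.41) and -1.10 (SE 0.53), and the latter was -1.56 without cannabis 3. Site 2 supplied 29.9 ± 15.95% of Ampd3 reads in air control and 13.2 ± 11.2% in cannabis (SD, n = 4 each). For Ampd2, site 1 held 92.8% of reads.

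Adk, adenosine kinase, removes adenosine by making AMP. Its total was 140.4, 101, 70.5 and 209 in air control and 108, 112, 86.6 and 70.7 in cannabis libraries. The air control libraries spanned both the lowest and the highest value, and the log2 difference was -0.37 (SE 0.31). Without air control 4 it was -0.10. Adk site 1 held 75.7% of reads, at 93.2 ± 40.7 in air control and 72.9 ± 19.8 in cannabis, and site 2 was at 5.85, 3.59, 6.04 and 63.6 in air control and 6.21, 1.99, 3.94 and 6.91 in cannabis libraries. Air control 4 had 32 of its 105 Adk reads on site 2 (30.5%, Wilson interval 22.5 to 39.8%).

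In all, 1 of 6 member totals, Adssl1, passed the limma threshold of P of 0.01, beside 0.278% of all gene totals (0.178% in the direction lower in cannabis). Among sites, 1 of 25 passed it, Adssl1 site 1, beside 0.381% of all sites. None of the 6 totals or 25 sites passed an adjusted P of 0.05, beside 0.00555% of gene totals, whereas 1 total and 1 site did so when cannabis 5 was left out, out of 2 gene totals and 4 sites over all features. Groups did not overlap for 0 of 6 totals and 0 of 25 sites, beside 1.98% of gene totals and 2% of sites. Nothing is read from these counts, since Adssl1 was chosen with this contrast known, and DESeq2 on the recovered reads gave 0 of 6 and 0 of 25. The median log2 difference was 0.00 over the 6 totals and 0.05 over all 18003 genes. Without air control 4 the differences of Adss, Ampd2 and Ampd3 changed sign, to -0.20, -0.10 and -0.10, and with edgeR and DESeq2 on the recovered reads those of Adss (-0.056 and -0.062) and Ampd3 (-0.003 and -0.011) did too. The difference of Adsl was 0.008 without cannabis 1, and that of Adk changed sign with the replicate block (0.025). No direction is therefore given for the members other than Adssl1.

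The remaining 14 sites of Adss, Adsl, Ampd2 and Adk were each low, with means of 1.59 to 4.47 normalized counts and 16 to 43 reads over the 8 libraries. None of them passed the threshold of P of 0.01.

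Ranked by mean log2(total + 1) over the 8 libraries, the members stood in the order Adsl (8.10), Adss (6.91), Adk (6.74), Ampd3 (5.98), Adssl1 (4.86) and Ampd2 (4.80). Adsl exceeded the other members in 8 of 8 libraries. Of the 10 pairs without Adssl1, 9 differed within libraries at an adjusted P of 0.05 (exact paired sign-flip permutation test, two-sided, Benjamini-Hochberg over 15 pairs, smallest possible p of 0.00781). Among neighbours in the order, Adsl was above Adss by 1.19 log2 units (exact adjusted p = 0.0130, n = 8) and Adk above Ampd3 by 0.76, higher in 7 of 8 libraries (exact adjusted p = 0.0320, n = 8). The order of Adk and Ampd3 depended on the libraries used. That pair no longer passed without air control 1, 2 or 4, or without cannabis 1, 2 or 3.

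Adss and Adk did not differ beyond their spread (0.18 log2 units, SD 0.86, exact adjusted p = 0.611, n = 8). No test is given for the 5 pairs with Adssl1, whose level differed between the groups by the choice of the gene. By mean normalized count Adssl1 ranked 4 among the 6 members in air control and 6 in cannabis libraries. Among all genes, the members' mean totals stood between percentile 53.8 (Ampd2) and percentile 92.7 (Adsl).

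Adss, Ampd2 and Ampd3, which act at the steps that use or return IMP, had the smallest spread of their ratios among the 10 pairs of members without Adssl1. The pattern was picked after the values were seen and not compared with other gene pairs. The log2 level of each varied with an SD of 0.40 (Adss), 0.45 (Ampd2) and 0.36 (Ampd3) over the 8 libraries. Within libraries, the difference between Ampd3 and Ampd2 had an SD of 0.13, that between Adss and Ampd2 of 0.13 and that between Adss and Ampd3 of 0.16, beside 0.43 to 0.92 for the other 7 pairs. Adss, Ampd2 and Ampd3 were lowest in air control 4, the shallowest library. Without it the SDs of their levels were 0.21, 0.29 and 0.28 and those of the 3 differences 0.061, 0.14 and 0.14. The SDs of the other 7 pairs were then also smaller, at 0.272 to 0.565. The part of depth in this shared variation was not tested.

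**Figure D3:**
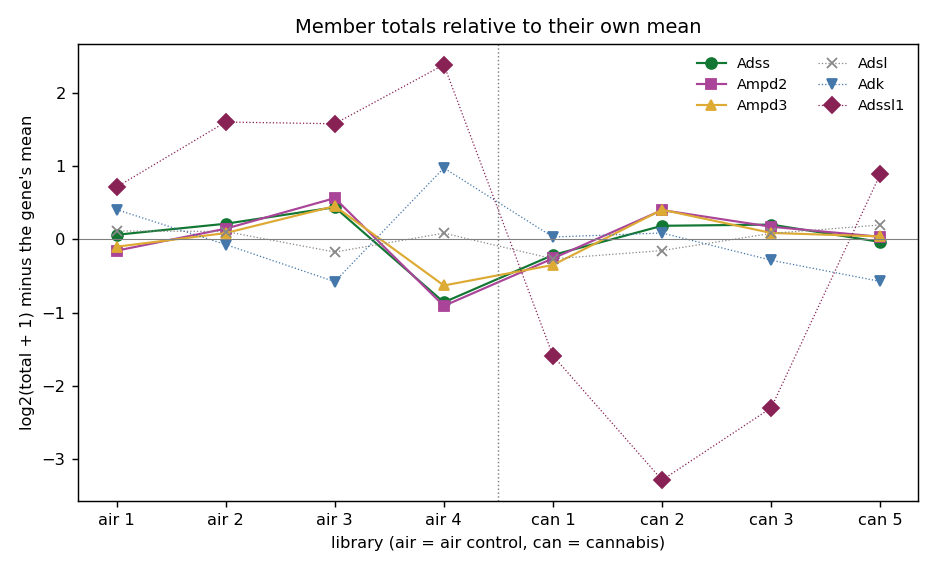
Log2(total + 1) of each member minus its own mean over the 8 libraries (y axis) in the 4 air control and 4 cannabis libraries (x axis), where lines only join the points of a gene. Adss, Ampd2 and Ampd3 (solid) move together and are lowest in air control 4, whereas Adssl1 (dotted, diamonds) is above its mean in the air control libraries and cannabis 5 and below it in cannabis replicates 1, 2 and 3.

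Genes with a profile like that of Adssl1 were sought among the 12113 other genes with a mean total of at least 10, by the root mean square (RMS) difference between log2(total + 1) profiles centred on their mean over the 8 libraries. The 5 most alike were Slc6a3 (the dopamine transporter, RMS 0.89), P3h3 (a prolyl hydroxylase, 1.11), En1 (a homeobox factor, 1.30), LOC100360453 (1.34) and Th (tyrosine hydroxylase, 1.36). For comparison, a gene with a flat profile would be at 1.96 and the median gene was at 2.04. The profiles include the contrast by which Adssl1 was chosen, so genes far lower in cannabis rank near it by construction. Similarity within the groups alone was not computed. Of these 5 genes, Slc6a3, En1 and Th are also the 3 midbrain dopamine markers whose groups did not overlap, so that the summed list is no separate observation. P3h3, on none of the marker lists, had no overlap either (56.4 to 133 in air control, 5.31 to 34.4 in cannabis). The groups of LOC100360453 overlapped.

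Slc6a3 was at 321, 237, 267 and 256 normalized counts in air control and at 16.1, 12.6, 38.4 and 59.9 in cannabis libraries. Th was at 373, 287, 267 and 292 in air control and 72.0, 98.98, 124 and 173 in cannabis libraries. Cannabis 5, the cannabis library with the highest Adssl1, was also the highest of its group for both, though not for En1 (3.84 against 4.92 in cannabis 3) or P3h3 (29.2 against 34.4 in cannabis 3), and air control 4, with the highest Adssl1 of all, was not the highest for Slc6a3 or Th. The part of dopamine cells, midbrain or hypothalamic, in the Adssl1 values was not tested. Other listed midbrain markers overlapped between groups, with Slc18a2 at 67.5 to 113 and 49.7 to 90.6, Foxa1 at 1.197 to 5.96 and 2.95 to 9.93, and Pitx3 at 0 to 5.12 and 0 to 1.33.

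Skeletal muscle, where the cycle is most active, was checked by its own markers. Of 7 listed, Mb, Myh1 and Ampd1 had no row, Ckm was at 0 to 5.12, and the 4 measured markers summed to 59.6 to 87.0 in air control and 63.3 to 105.6 in cannabis libraries. These sums overlapped and came mostly from Acta1, at 65.4 on average. Sums of the other marker lists (red blood cells, choroid plexus, pituitary, oligodendrocytes, astrocytes, microglia and endothelium) also overlapped between groups.

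Genes that neighbour Adssl1 in the rat GRCr8 gene order, where it is listed as Adss1, were looked up after its values were seen. Inf2 was at 62.9 ± 8.39 in air control and 49.3 ± 22.1 in cannabis, Siva1 at 82.9 ± 24.8 and 84.4 ± 27.4, and Akt1 at 95.4 ± 34.7 and 102 ± 51.2 (SD, n = 4 each). The groups overlapped for these genes and for Tmem179, Cep170b and Kif26a. GRCr8 is not the build of the files, so no coordinates are given.

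Purine metabolism outside the members was followed with a list of 54 genes, of which 44 were in the files. In the limma fit across all genes 0 of these 44 passed P of 0.01, 0 passed P of 0.05 and 0 passed an adjusted P of 0.05, and edgeR and DESeq2 on the recovered reads also gave 0 at P of 0.01. Of all 18003 genes 433 passed P of 0.05, 0.278% passed P of 0.01 and 0.00555% passed an adjusted P of 0.05. At such shares few calls or none are due in a list of this size, so nothing is read from the absence of calls. Fitted differences were above 0 for 30 genes and below 0 for 14, with a median of 0.10 beside 0.05 over all genes, and ran from -0.98 (Ppat) to 1.14 (Nt5c1a). The value of Nt5c1a, named with Ppat as the ends of the range, rested on air control 4, where it was at 0, and was 0.03 without that library. The smallest P was 0.123 (Gart) and the smallest adjusted P was 0.999 (limma). The groups overlapped for every gene of the list in the files, beside 1.98% of all gene totals without overlap.

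Purine synthesis enzymes upstream of IMP were represented by 5 of 7 listed genes. Gart, a multi-step enzyme of this route, was at 75.3 ± 15.0 in air control and 101 ± 24.4 in cannabis (log2 difference 0.41, SE 0.25), and Prps2, which makes the ribose phosphate donor, at 74.2 ± 24.02 and 81.0 ± 24.1 (0.13, SE 0.30; SD, n = 4 each). Among the genes listed for the GMP branch, Guk1 (guanylate kinase) was at 339 ± 50.3 and 383 ± 154, and Impdh2, which oxidises IMP, at 122 ± 40.7 and 107 ± 35.8. Salvage and breakdown genes included Aprt, which returns adenine to AMP, at 242 ± 35.9 and 245 ± 57.2, and Gda, guanine deaminase, at 40.2 ± 7.92 and 33.4 ± 13.2. None of these differences passed the test.

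Enzymes that dephosphorylate nucleotides or interconvert adenine nucleotides likewise had no call. Nt5c2, a cytosolic nucleotidase that acts on IMP, was at 188 ± 43.96 in air control and 184 ± 52.5 in cannabis, and Nt5c3b, another nucleotidase, at 99.8 ± 8.29 and 108 ± 16.4. The adenylate kinases Ak3 and Ak4 were at 93.7 ± 19.9 and 109 ± 33.5, and at 55.1 ± 23.7 and 56.0 ± 19.4. Of adenosine transporters and receptors, Adora1 was at 100.4 ± 22.0 and 92.5 ± 14.4 and Slc29a3 at 56.1 ± 14.0 and 70.0 ± 20.3 (SD, n = 4 each).

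Subunits of the AMP-activated kinase, which senses AMP, included Prkaa1 at 1305 ± 300.1 in air control and 1439 ± 460 in cannabis, and Prkag2 at 197 ± 55.3 and 209 ± 47.4. Genes that supply aspartate or take up fumarate gave Mdh1, malate dehydrogenase, at 2150 ± 802 and 2782 ± 770 (log2 difference 0.40, SE 0.28) and Got2, an aspartate aminotransferase, at 1225 ± 227 and 1307 ± 260 (0.09, SE 0.21; SD, n = 4 each). All 8 listed genes of that role were measured, with 6 fitted differences above 0 and 2 below. With 4 libraries per group, a P above the threshold does not show equal levels.

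**Figure D4:**
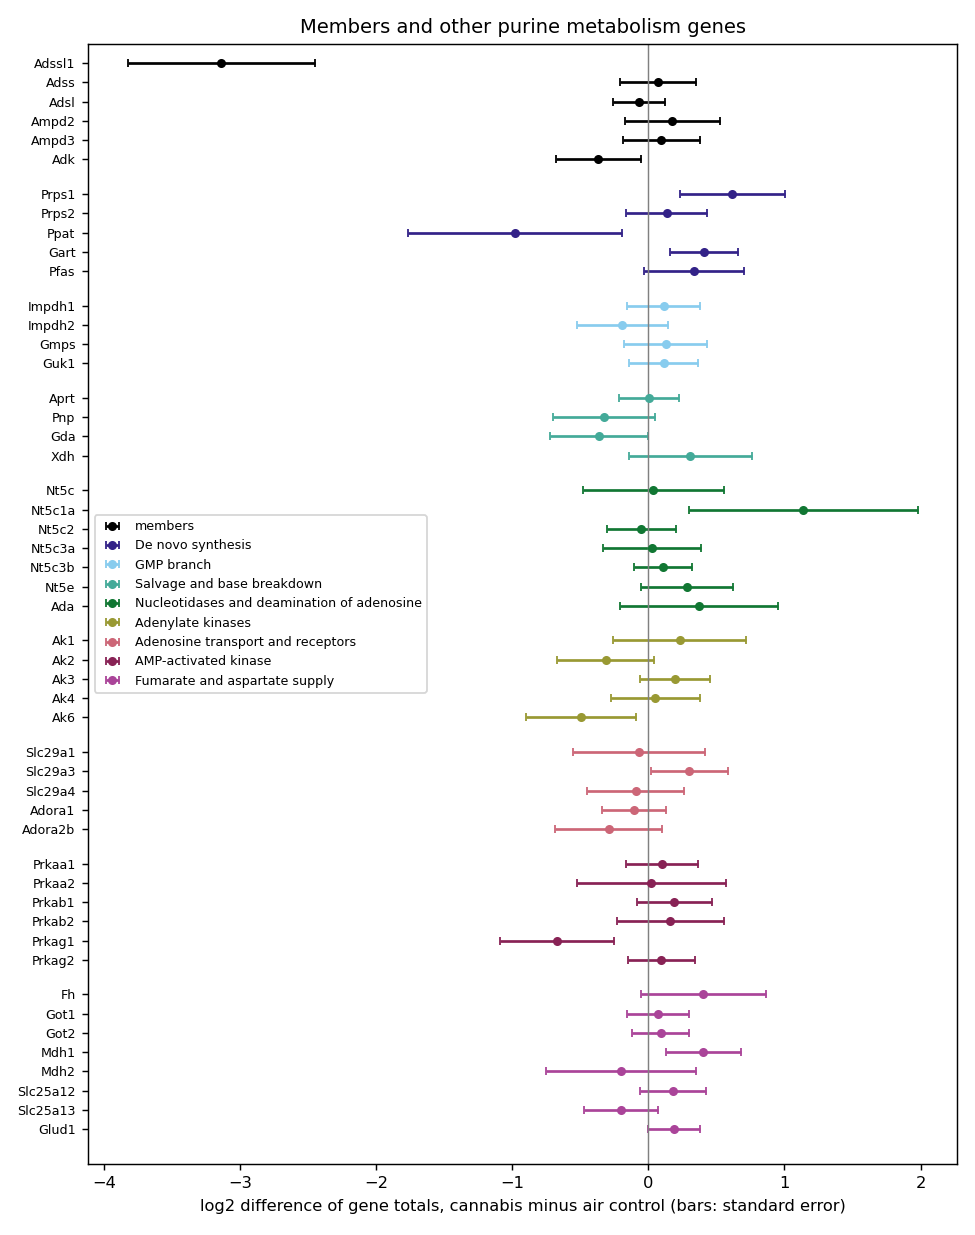
Fitted log2 differences of gene totals, cannabis minus air control (x axis, log2(total + 1) scale), for the 6 members (black) and the 44 other purine metabolism genes grouped by role (colours), with bars of 1 standard error. Adssl1 at -3.14 lies left of all other genes, which run from -0.98 to 1.14 (Nt5c1a, 0.03 without air control 4).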

How the data were processed

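WTTS-Seq reads were quality-filtered and trimmed of their leading Ts by the authors (FASTX Toolkit and own scripts), then aligned by TMAP against the Rnor_6.0 assembly. Nearby read ends formed an APA site, and Cuffcompare supplied the gene. What the authors deposited is a normalized count (a signal per site, reads over a DESeq2 size factor), in 1 file per library and not pooled. Dividing by the worth of 1 read returned whole reads for 100% of values (tolerance 0.01 reads).

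Gene totals and sites were fitted over all features with limma 3.58.1 (lmFit, eBayes with trend, R 4.3.3) on log2(normalized count + 1), without covariates and without a filter; this scale understates changes of low genes. edgeR 4.0.16 and DESeq2 1.42.0 on the recovered reads, another pseudocount (0.5 or 5), only features whose mean was 10 or more, equal library totals, a replicate block and leaving out each library were alternatives. Level order used exact sign-flip tests adjusted over 15 pairs, of which the 5 with Adssl1 are not reported. In a simulation for this comparison, 200 genes or sites were changed by a log2 value of 2, at a single dispersion of 0.2. At P of 0.01 the fit recovered 91.5% of these among 18003 genes and 90.0% among 98356 sites. Changed features were drawn only above a minimum mean level, so these rates do not apply to low sites. Unchanged genes and sites were called at 0.921% and 0.933%, against 0.278% and 0.381% of all features in the data, so the simulated spread was unlike that of the data. Depth was 1159811 to 3706778 reads per library.

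Members and gene lists were chosen with earlier results of these data known. Text names every member, all Adssl1 sites, other members' sites with a mean of at least 5, listed purine genes past P of 0.01 or among the 2 highest of their role, and the 5 genes most like Adssl1. The methods state libraries for individual rats, but the labels do not, so p-values measure the spread between libraries, and PCR duplicates could not be counted out. The methods also give more rats per group for this cohort than there are libraries. How the libraries were drawn from these rats is not stated. Replicate numbers were not used as pairs in the main fit. Python 3.11.15, scipy 1.17.1 and matplotlib 3.10.9 were also used.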

Additional observations from a re-analysis of the deposited data

Results flagged for a closer look

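Of 66 groups of 4 libraries checked for a library far from the other 3 (Dixon's test), 6 were picked out, or 9.09%. Chance alone picks out about 1 in 20 where groups are independent and values normally distributed. These groups are not independent, since gene totals contain their own sites, so no excess over chance is read. For the Adssl1 total, cannabis 5 stood at 53.0 normalized counts against 1.99 to 8.69 in the other cannabis libraries. Adssl1 site 1 gave the same library, at 53.0 against 0 to 2.48. The Adsl total of air control 3 was 242 against 290.0 to 296 in the other air control libraries. Ampd3 site 2 was at 19.7 in cannabis 3 and at 4.61 to 4.97 in the others of its group. Adk site 2 was at 63.6 in air control 4, the shallowest library, and at 3.59 to 6.04 in the other air control libraries. The total of Gda, guanine deaminase, was 13.7 in cannabis 1 and 38.4 to 41.2 in the other cannabis libraries.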

How the results depend on the processing

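The log2 difference of the Adssl1 total stayed negative under all 15 alternatives, from -3.96 (without cannabis 5) to -2.57 (without cannabis 2) when a library was left out and from -3.69 to -2.42 under the others. That of site 1 ran from -5.79 to -3.87 and from -5.52 to -2.55. With DESeq2 0 member totals and 0 member sites passed P of 0.01, against 1 and 1, and the cause was not tested. Leaving out a library gave 1 to 2 member sites, the 2 arising without cannabis 3, when Ampd3 site 2 joined. Of the 10 level pairs without Adssl1, 8 to 9 differed under the alternatives, against 9. Where leaving out a library lost a pair, it was that of Adk and Ampd3. Equal replicate numbers correlated at -0.23 to 0.09 between groups, and 0 of 3 air control libraries correlated best with their own number. Unequal numbers reached 0.489 (air control 4 with cannabis 1) and -0.388 (air control 4 with cannabis 2). Such shared variation can hide a pairing by number, so these values do not decide on it. The fit with a replicate block, which draws nothing from air control 4 and cannabis 5, gave -3.69 for Adssl1, with 1 member total and 1 member site past an adjusted P of 0.05 against 0 (over all features 2 gene totals and 4 sites against 1 and 1), and 24 genes past P of 0.01 against 50. Gene counts past P of 0.01 were 29 with a mean of at least 10, 76 with DESeq2 and 30 to 90 with a library left out, and site counts were 44, 310 and 227 to 617 against 375 (229 with the block, 517 with edgeR). None of the purine list genes passed P of 0.01 in any setting, and 11 of the 16 named as the highest of their role changed sign somewhere. Nt5c1a was -0.19 with the block. Aprt (0.01) was -0.016 with equal totals, -0.093 with the block, -0.032 with edgeR and -0.039 with DESeq2. With the block Nt5c2 was 0.12, Adora1 0.14 and Prkaa1 -0.016, and with DESeq2 Ak4 was -0.01. With a library left out, the values ran from -0.057 to 0.32 (Prps2), -0.48 to 0.072 (Impdh2), -0.13 to 0.27 (Guk1), -0.14 to 0.12 (Aprt), -0.50 to 0.01 (Gda), -0.21 to 0.13 (Nt5c2), -0.16 to 0.31 (Ak4), -0.23 to 0.022 (Adora1), -0.032 to 0.35 (Prkaa1), -0.011 to 0.27 (Prkag2) and -0.019 to 0.20 (Got2). The 14 minor sites rest on 16 to 43 reads each.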
